A study of Mus musculus with 4 samples.

Results

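The genes described here encode voltage-gated ion channels and potassium channels. They were chosen by name, as the rows of the deposited table whose symbol belongs to the potassium (Kcn), sodium (Scn), calcium (Cacna1, Cacna2d, Cacnb and Cacng) or hyperpolarization-activated (Hcn) channel families, with their auxiliary subunits. The name rule found 137 genes among 55426 rows. Their mRNA was measured in mouse retinal organoids, aggregates of stem cells that are driven in culture towards retinal progenitors, collected on day 6 and sequenced after poly(A) selection.

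All 4 libraries came, by the labels, from 1 cell line. It is knocked out for Mettl3, whose product is the catalytic subunit of the m6A RNA methyltransferase, and it carries an Rx:GFP reporter and an HA-METTL3 transgene under doxycycline (Dox) control. The 2 untreated libraries received no Dox, and the 2 Dox libraries received 2 µg/ml for 6 days. By these labels both groups share the knockout, the transgene and the culture medium. The titles of all 4 also carry the letters EV, which the labels do not explain, so what construct the libraries carry rests on the genotype label alone. The labels say that the duplicates went through separate library preparation and sequencing, but not that they came from separate cultures. The p-values below therefore measure only the spread between these libraries, which may be technical.

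Ion channels set the resting potential of a cell and let it fire. Potassium channels draw the membrane towards rest, sodium channels start the action potential, and voltage-gated calcium channels turn depolarization into calcium entry. Auxiliary subunits carry the pore proteins to the membrane or tune their gating. The full neuronal set of channels appears as neurons mature.

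The promoters of Kcnip1, Cacna2d1 and Kcnn1, whose level moved with Dox, are shown first. That of Kcnj2, which stood apart without passing the expression filter, is added to these promoters. They are RefSeq windows on GRCm38.p6, from 250 bases before to 50 after the start site, printed 5′ to 3′ on the gene's strand. The table held 136 windows for 100 of the 137 genes. Kcnip1 and Kcnn1 have several windows, of which the one at the 5′ end of the gene is shown. Capitals mark matches, on either strand, to the homeodomain cores TAATTA and TAATTG, the E-box CAGCTG, the GC box GGGCGG and the TATA box TATAAA. Kcnip1 is at chr11:33993144-33993443 (minus strand), Cacna2d1 at chr5:15934441-15934740 (plus), Kcnn1 at chr8:70863209-70863508 (minus) and Kcnj2 at chr11:111065914-111066213 (plus).
Kcnip1: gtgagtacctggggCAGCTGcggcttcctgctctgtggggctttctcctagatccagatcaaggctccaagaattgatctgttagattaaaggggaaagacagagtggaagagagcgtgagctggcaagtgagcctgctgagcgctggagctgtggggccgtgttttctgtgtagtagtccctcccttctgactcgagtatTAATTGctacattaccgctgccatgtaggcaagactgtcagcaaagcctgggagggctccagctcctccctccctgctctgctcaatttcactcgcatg
Cacna2d1: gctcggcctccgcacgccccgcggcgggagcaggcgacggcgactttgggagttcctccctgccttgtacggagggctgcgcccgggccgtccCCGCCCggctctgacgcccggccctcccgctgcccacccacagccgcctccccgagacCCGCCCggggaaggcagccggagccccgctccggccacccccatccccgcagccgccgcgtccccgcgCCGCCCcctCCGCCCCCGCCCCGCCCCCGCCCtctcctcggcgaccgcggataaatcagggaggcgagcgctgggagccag
Kcnn1: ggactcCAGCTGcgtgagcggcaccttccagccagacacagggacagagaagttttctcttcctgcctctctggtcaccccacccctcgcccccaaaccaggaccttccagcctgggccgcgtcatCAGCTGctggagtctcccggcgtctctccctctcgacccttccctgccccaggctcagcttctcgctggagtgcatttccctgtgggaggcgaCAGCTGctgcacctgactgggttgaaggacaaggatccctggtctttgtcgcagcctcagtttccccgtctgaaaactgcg
Kcnj2: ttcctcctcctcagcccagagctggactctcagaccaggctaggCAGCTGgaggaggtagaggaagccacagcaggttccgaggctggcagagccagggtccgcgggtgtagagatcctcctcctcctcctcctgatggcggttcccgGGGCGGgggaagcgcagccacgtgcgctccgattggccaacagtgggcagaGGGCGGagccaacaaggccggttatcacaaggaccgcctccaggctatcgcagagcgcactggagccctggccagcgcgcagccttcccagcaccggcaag

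The Kcnip1 window held 1 TAATTG and 1 CAGCTG. The Kcnn1 window held 3 copies of CAGCTG, and that of Kcnj2 held 1 CAGCTG and 2 GGGCGG. The further windows of Kcnip1 and Kcnn1 held other counts, and the data do not show which start sites these cells used. In the Cacna2d1 window there were 7 GGGCGG, some adjoining or overlapping, with 14.0 CpG per 100 bases. CAGCTG was in 26.5% of the channel windows and in 16.3% of all 32851 promoter windows of the same length. GGGCGG was in 45.6% against 35.7%, TATAAA in 5.15% against 13.6%, and TAATTG in 5.88% against 8.0%. TAATTA was in 0 of the 136 channel windows and in 5.29% of all. These are letter matches in a fixed window, given as a description. The channel windows had a median of 3.0 CpG per 100 bases, against 2.33 over all windows. Whether base composition bears on the shares was not tested. The windows listed for Kcnh2 and Kcnj12 lie 22013 and 43240 bases into the gene and are not printed. No window is shown for Cacna1g, whose level also moved with Dox.

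The libraries held 31900000 to 34700000 fragments, as recovered from the steps of low values. The FPKM values, fragment numbers scaled to transcript length and library depth, summed to 793310 to 866240 per library. Mettl3 itself was listed at 40.33 and 37.98 FPKM without Dox and at 45.2 and 46.37 FPKM with it, which did not pass the threshold (log2 fold change 0.22, adjusted p = 0.122 in limma). The retinal progenitor markers changed with the labels: Rax, an eye-field gene, was at 1.12 and 0.82 FPKM without Dox and at 201.14 and 227.98 FPKM with it, and 7 of the 8 markers of that list were higher past the threshold.

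Most channel genes were scarce. Of the 137 genes, 30 averaged 1 FPKM or more across the 4 libraries and were tested, with limma on log2(FPKM + 1) over all 13931 genes that passed the same filter. The other 107 were not tested. Of all 137, 60 had a mean below 0.1 FPKM and 6 were listed at 0 in every library (Kcna10, Kcnj1, Kcnk9, Kcnk16, Scn7a and Scn10a, named after their values were seen). Only 7 genes had a mean of 10 FPKM or more. The summed FPKM of all 137 was 240.39 and 229.51 in the untreated libraries and 197.84 and 221.06 in the Dox libraries. The 5 genes with the highest means (Kcnh2, Cacng7, Cacnb3, Cacna1g and Kcnj12) made up 44.3% to 47.9% of it. The plot of FPKM by library shows 24 of the 30 tested genes, those described in the text.

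**Figure D1:**
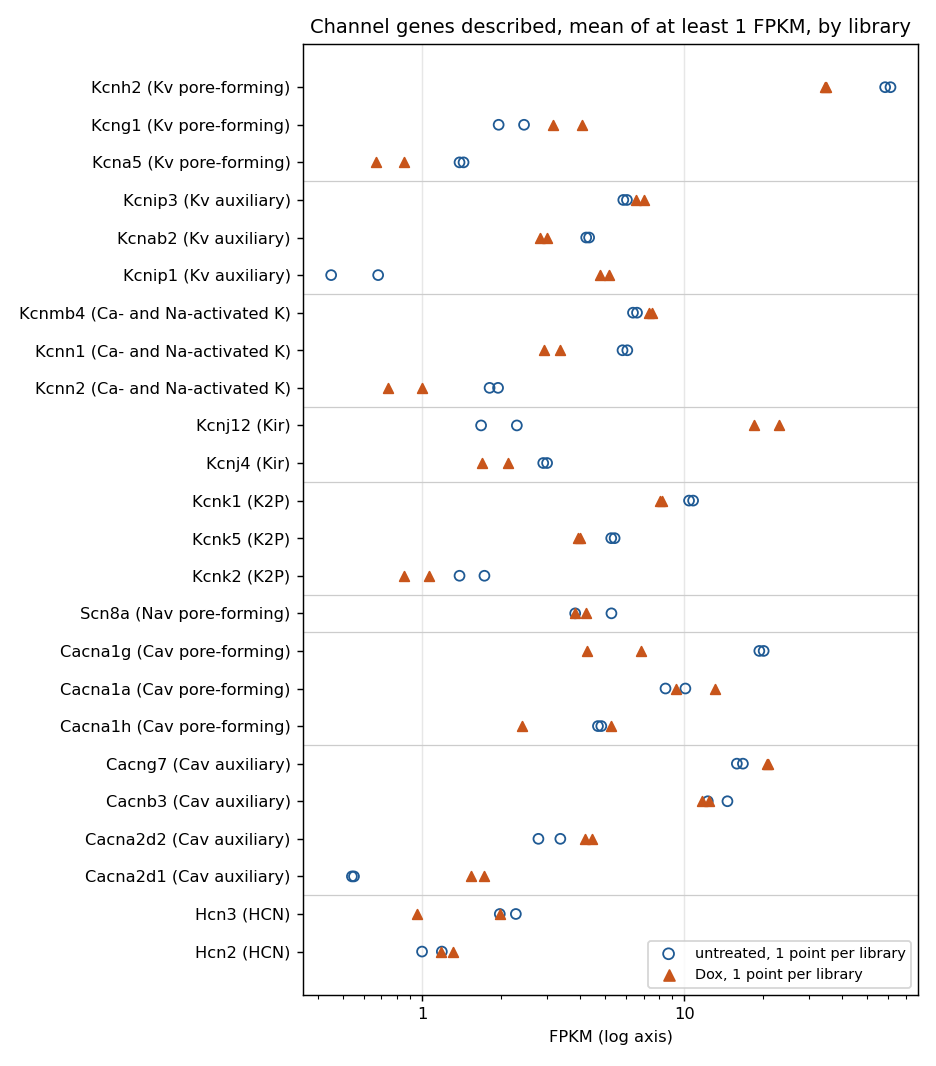
FPKM (log axis) of 24 of the 30 tested channel genes, grouped by family, with 1 point per library (circles untreated, triangles Dox). Kcnh2 is the highest in all 4 libraries, and Kcnj12 and Kcnip1 show the widest gaps between the groups.

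With Dox, 3 of the 30 tested channel genes rose and 3 fell past an adjusted p of 0.05. The inward rectifier Kcnj12, the Kv4 partner Kcnip1 and the calcium channel subunit Cacna2d1 rose. The potassium channel Kcnh2, the T-type calcium channel Cacna1g and the small-conductance potassium channel Kcnn1 fell. Among all tested genes 9.31% were called, 4.44% higher and 4.87% lower, against 20.0% of the channel genes. For 21 of the 30 (70.0%) both Dox libraries lay on one side of both untreated ones, 8 above and 13 below. Over all tested genes this held for 53.4%, with 26.5% above and 26.9% below. The median log2 fold change was -0.21 over the 30 genes and -0.0042 over all tested genes. Without Dox replicate 1 the channel median was -0.077.

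The filter bears on these counts. Kcnip1, Cacna2d1, Kcnn2, Kcnk2 and Kcna5 had a mean below 1 FPKM in one group and were tested only because the other was higher. With 2 libraries against 2, the exact two-sided permutation p of a single gene cannot fall below 0.333. The calls therefore depend on the variance that limma borrows from the other genes.

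**Figure D2:**
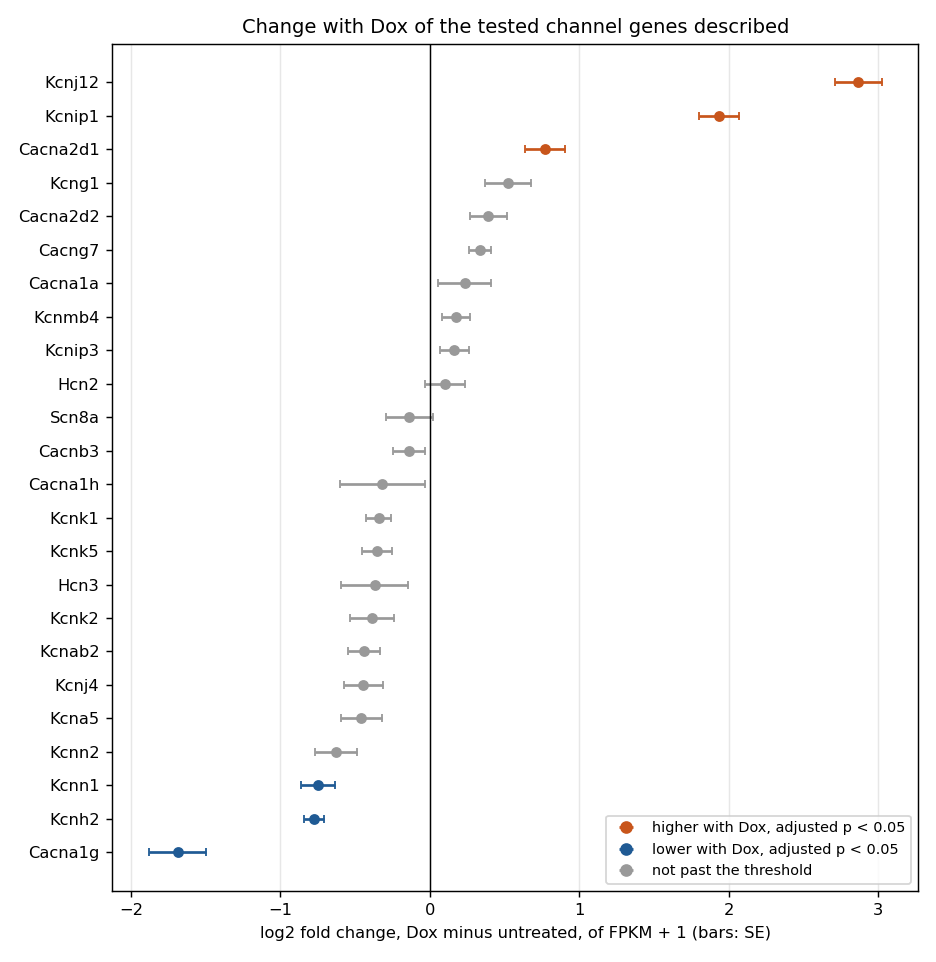
Log2 fold change (Dox minus untreated, of FPKM + 1, bars SE) of 24 of the 30 tested channel genes, coloured by call. The 3 higher genes lie between 0.77 and 2.87 and the 3 lower ones between -1.69 and -0.75, with the other genes plotted in between.

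Among the inward-rectifier potassium channels, which hold the resting potential near that of potassium, the Kir2 genes went in different directions. Kcnj12 (ENSMUSG00000042529, chr11:61022564-61071131, GRCm38) encodes a strong inward rectifier. Without Dox it was listed at 2.30 and 1.68 FPKM, and with Dox at 18.51 and 23.09 FPKM. The Dox libraries lay well above both untreated ones, and its mean went from 1.99 ± 0.438 to 20.8 ± 3.24 FPKM (SD, n = 2 each), a 10.5-fold rise. On the log2(FPKM + 1) scale this was 2.87 (SE 0.157, adjusted p = 4.30e-04 in limma). Kcnj12 was called in every alternative fit.

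Kcnj2 (ENSMUSG00000041695, chr11:111066164-111076821), the gene of the best-known Kir2 channel, stood the other way round, below the filter. It was at 1.01 and 1.07 FPKM without Dox and at 0.11 FPKM in both Dox libraries. The untreated libraries held roughly 169 and 193 fragments of it and the Dox libraries 18 and 19. Its mean was 9.45-fold lower with Dox, and without the filter it passed the threshold (adjusted p = 0.0225 in limma). Kcnj4, another Kir2 gene, was at 3.0 and 2.90 FPKM without and at 1.69 and 2.12 FPKM with Dox (log2 fold change -0.45, adjusted p = 0.110 in limma). Kcnj14 was at 1.19 and 0.97 against 0.95 and 0.75 FPKM and was not tested. Summed over the 4 Kir2 genes the level was 7.50 and 6.62 FPKM without Dox and 21.26 and 26.07 FPKM with it. Kcnj12 supplied 22.954% and 20.87% of the summed FPKM of all 15 inward-rectifier genes in the untreated libraries and 81.22% and 82.523% in the Dox libraries.

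Of the 40 pore-forming genes of voltage-gated potassium channels, which repolarize the membrane, 6 were tested. Kcnh2 (ENSMUSG00000038319, chr5:24319589-24351604), the ERG channel known for ending the cardiac action potential, was the channel gene with the highest level. It stood at 61.28 and 58.47 FPKM without Dox and at 34.34 and 34.83 FPKM with it. The groups were far apart compared with their replicates, and Kcnh2 fell by 0.77 on the log2 scale (SE 0.0652, adjusted p = 0.00183 in limma), from 59.9 ± 1.99 to 34.6 ± 0.346 FPKM (SD, n = 2 each). It was called in every alternative fit. Kcnh2 made up 77.325% and 77.229% of the summed FPKM of this family in the untreated libraries and 71.097% and 66.343% in the Dox libraries, so the family sum moved largely with it.

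The other 5 tested genes of this family did not pass, and 2 of them are described. Kcng1, a silent subunit that forms no channel alone, was at 2.45 and 1.96 against 3.15 and 4.07 FPKM (adjusted p = 0.113 in limma). Kcna5 was at 1.44 and 1.39 against 0.85 and 0.67 FPKM (adjusted p = 0.115).

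Among the 12 auxiliary genes of these channels, 4 were tested and 1 was called. Kcnip1 (ENSMUSG00000053519, chr11:33629339-33993152) encodes a calcium-binding KChIP protein that joins Kv4 channels. It was at 0.45 and 0.68 FPKM without Dox and at 4.79 and 5.15 FPKM with it. Both Dox libraries stood far above the untreated ones, from 0.565 ± 0.163 to 4.97 ± 0.255 FPKM (SD, n = 2 each), an 8.80-fold rise in the mean. The log2 fold change was 1.93 (SE 0.136, adjusted p = 9.63e-04 in limma). With a minimum mean of 5 FPKM Kcnip1 was not tested, and it was called in the other alternatives.

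The Kv4 pores that KChIPs join stayed scarce. Kcnd1 was at 0.87 and 0.95 FPKM without and at 0.93 and 0.88 FPKM with Dox. Kcnd3 was at 0.25 and 0.26 against 0.19 and 0.17 FPKM. Kcnip3, which also serves as a calcium-dependent repressor of transcription, was the KChIP gene with the highest mean, at 5.86 and 6.05 against 7.02 and 6.57 FPKM (log2 fold change 0.16, adjusted p = 0.375 in limma). Summed over the 4 KChIP genes the level was 7.27 and 7.39 FPKM without Dox and 13.01 and 12.71 FPKM with it. Kcnab2, a Kv beta subunit, was at 4.23 and 4.34 against 2.81 and 2.99 FPKM (adjusted p = 0.0697), and it passed when limma was run without the intensity trend.

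Of the 12 genes grouped as calcium- and sodium-activated potassium channels, a group that also holds beta subunits and the related Kcnu1, 3 were tested. Kcnn1 (ENSMUSG00000002908, chr8:70842049-70863258) encodes a small-conductance (SK) channel opened by calcium. Without Dox it was at 6.07 and 5.82 FPKM, and with Dox at 2.91 and 3.37 FPKM. The groups did not overlap, and the mean fell from 5.95 ± 0.177 to 3.14 ± 0.325 FPKM (SD, n = 2 each), and the log2 fold change was -0.75 (SE 0.112, adjusted p = 0.0144 in limma). Kcnn2, a second SK gene, was at 1.95 and 1.81 against 1.00 and 0.74 FPKM, also without overlap, but missed the threshold (log2 fold change -0.63, adjusted p = 0.0555). Kcnn2 was called lower with robust estimation and without the intensity trend. The 4 genes of this SK and IK group summed to 8.41 and 7.93 FPKM without Dox and to 4.26 and 4.50 FPKM with it. Kcnmb4, the BK beta subunit with the highest mean of the family, was at 6.61 and 6.38 against 7.34 and 7.57 FPKM (adjusted p = 0.328), and 31.53% of its annotated exon bases are shared with antisense genes. The call of Kcnn1 was lost when any 1 of the 4 libraries was left out (adjusted p 0.0582 to 0.0987 in limma) and without the filter (0.0809).

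The tandem-pore (K2P) channels, which carry the potassium leak, had 3 tested genes, all with a negative fold change. Kcnk1 was at 10.82 and 10.44 FPKM without and at 8.24 and 8.09 FPKM with Dox. Kcnk5 was at 5.27 and 5.43 against 4.0 and 3.93 FPKM, and the mechanosensitive Kcnk2 at 1.73 and 1.39 against 1.06 and 0.85 FPKM. In each of these genes the Dox libraries lay below the untreated ones, as they did in 26.9% of all tested genes. None of the 3 passed the threshold in limma (adjusted p = 0.0723, 0.0989 and 0.189), while 3 had an unadjusted p under 0.05. The share of all tested genes under that unadjusted p is not given here, so the count has no background.

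**Figure D3:**
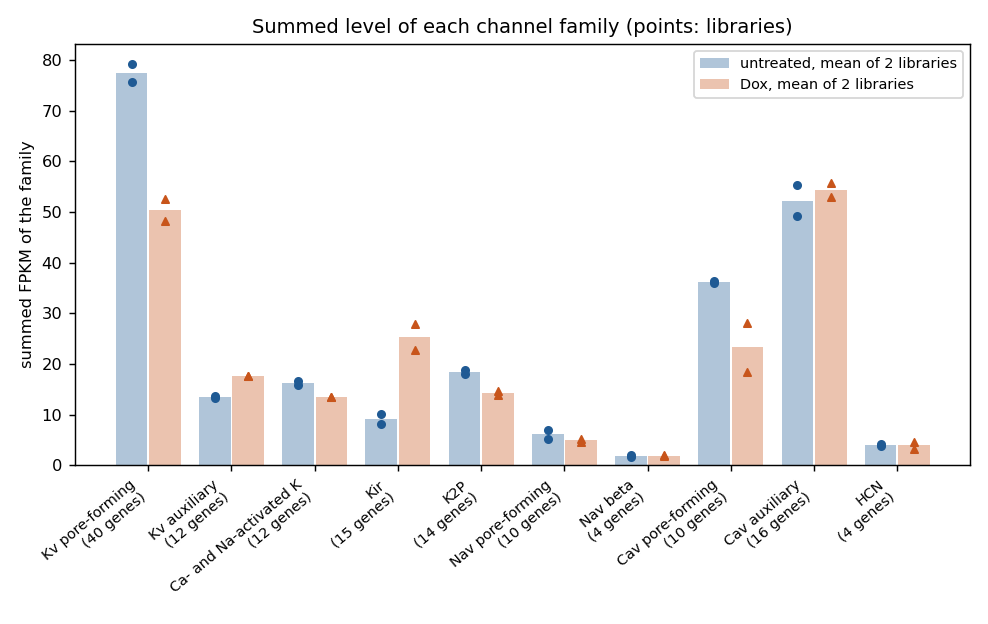
Summed FPKM of each channel family on a linear axis from 0, with bars for the mean of 2 libraries per group and points for the libraries. The inward-rectifier (Kir) and Kv auxiliary sums are higher in both Dox libraries. The Kv pore-forming, Cav pore-forming, K2P, calcium- and sodium-activated potassium and Nav pore-forming sums are lower in both. The Cav auxiliary, Nav beta and HCN sums overlap between the groups.

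Of the 10 pore-forming calcium channel genes, 3 were tested and 1 was called. Cacna1g (ENSMUSG00000020866, chr11:94408391-94474198) encodes a T-type channel, which opens at low voltage. It was at 20.11 and 19.36 FPKM without Dox and at 4.27 and 6.86 FPKM with it. Every Dox library lay below every untreated one, and the mean fell from 19.7 ± 0.530 to 5.57 ± 1.83 FPKM (SD, n = 2 each), 3.55-fold lower. The log2 fold change was -1.69 (SE 0.193, adjusted p = 0.00540 in limma). Without the filter Cacna1g did not pass (adjusted p = 0.0687).

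The other T-type genes did not follow Cacna1g. Cacna1h was at 4.83 and 4.69 FPKM without Dox and at 2.40 and 5.26 FPKM with it, where the spread between the Dox replicates exceeded the difference of the means (adjusted p = 0.559 in limma). Cacna1i was scarce, at 0.09 and 0.07 against 0.26 and 0.36 FPKM. The T-type sum was 25.03 and 24.12 FPKM without and 6.93 and 12.48 FPKM with Dox. Cacna1a, the P/Q-type pore of synapses, was at 8.49 and 10.11 against 9.27 and 13.15 FPKM, with overlapping groups. Of the L-type genes, Cacna1d, known from hair cell synapses, was below the filter at 0.28 and 0.32 FPKM without and 1.15 and 1.39 FPKM with Dox. Without the filter its adjusted p was 0.0510 in limma, just short of the threshold.

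Of the 16 auxiliary calcium channel genes, 6 were tested. Cacna2d1 (ENSMUSG00000040118, chr5:15934691-16374511) encodes an alpha2delta subunit, which carries calcium channels to the membrane and binds gabapentin. It was at 0.55 and 0.54 FPKM without Dox and at 1.54 and 1.73 FPKM with it. The groups were well apart, from 0.545 ± 0.00707 to 1.64 ± 0.134 FPKM (SD, n = 2 each), a 3.0-fold rise, and the log2 fold change was 0.77 (SE 0.134, adjusted p = 0.0244 in limma). The call was lost when any 1 of the 4 libraries was left out (adjusted p 0.0771 to 0.111) and without the filter (0.0567).

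Of the other alpha2delta genes, Cacna2d2 was also higher in both Dox libraries without passing the threshold. It was at 3.37 and 2.78 against 4.46 and 4.2 FPKM (log2 fold change 0.39, adjusted p = 0.130 in limma). Cacna2d3 was at 0.45 and 0.86 FPKM without and 0.16 and 0.08 FPKM with Dox, and was not tested. The gamma subunit gene Cacng7, whose protein also accompanies AMPA receptors, was the second most abundant channel gene. It stood at 16.76 and 15.89 FPKM without and at 20.88 and 20.80 FPKM with Dox, higher in both Dox libraries and just short of the threshold (log2 fold change 0.33, adjusted p = 0.0535). It passed with median centring (adjusted p = 0.0490) and with robust estimation (0.0478). Cacnb3, a beta subunit, was at 14.63 and 12.31 against 11.74 and 12.41 FPKM, with overlapping groups.

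Sodium channel transcripts were few. Of the 10 pore-forming genes only Scn8a reached the filter, and the 4 beta subunit genes did not. Scn8a, the sodium channel of the axon initial segment in mature neurons, was at 3.84 and 5.28 FPKM without Dox and at 3.82 and 4.21 FPKM with it. Its groups overlapped (log2 fold change -0.14, adjusted p = 0.650 in limma). Scn8a supplied 73.143% to 82.151% of the summed FPKM of the pore-forming sodium channel genes in the 4 libraries.

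Scn3a, the sodium channel typical of embryonic neurons, and Scn3b, a beta subunit, were both lower with Dox, at low levels. Scn3a was at 0.42 and 0.51 FPKM without and 0.06 and 0.05 FPKM with Dox, roughly 126 and 165 against 18 and 15 fragments. Without the filter it passed the threshold (adjusted p = 0.0433 in limma). Scn3b was at 0.41 and 0.54 against 0.06 and 0.07 FPKM and did not (adjusted p = 0.0624).

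The hyperpolarization-activated channels, which carry pacemaker currents, had 2 tested genes, and neither passed (0 at an unadjusted p under 0.05 in limma). Hcn3 was at 2.28 and 1.98 against 0.96 and 1.99 FPKM, with a wide spread between the Dox replicates and 17.12% of its exon bases shared with Pklr on the other strand. Hcn2 was at 1.19 and 1.00 against 1.18 and 1.31 FPKM. Like Hcn3 and Cacna1h, 21 of the 30 tested channel genes were higher in Dox replicate 2 than in Dox replicate 1, against 55.5% of all tested genes. In the untreated group 7 of the 30 were higher in replicate 2 than in replicate 1, against 47.8% of all tested genes. Whether this bears on the results above was not tested beyond leaving out each library.

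Among the 107 genes below the filter, the Dox libraries lay above the untreated ones in 19, below them in 30, and overlapped them in 58. Of the 101 with any value above 0 the groups lay apart in 48.5%, with 18.8% above and 29.7% below. Over all 13601 such genes they did so in 30.7%, with 14.1% above and 16.6% below. Low values overlap more often, and from 0.1 to below 1 FPKM the share was 61.7% of 47 channel genes (25.5% above, 36.2% below) and 45.1% of all genes (21.3% above, 23.8% below). The 12 with a group mean of at least 0.25 FPKM and a ratio of at least 2.5 between the group means are plotted by library, and were picked after their values were seen. Of these, 8 were lower with Dox: Kcnj2, Kcnq3, Cacna2d3, Scn3b, Scn3a, Cacng3, Kcnf1 and Kcnc1. Kcnq3, a pore of the neuronal M current, was at 0.94 and 0.63 against 0.24 and 0.16 FPKM, and Kcnc1, a fast delayed rectifier, at 0.34 and 0.31 against 0.10 and 0.09 FPKM. Cacng3 was at 0.64 and 0.29 FPKM without Dox and was listed at 0 and 0.01 FPKM with it. The 4 higher ones were Cacna1d, Kcnj13, Kcnu1 and Cacna1i. Kcnj13, a channel of the pigment epithelium, was at 0.45 and 0.06 against 0.54 and 0.91 FPKM, with untreated replicate 1 close to Dox replicate 1 and 49.06% of its exon bases shared with another gene.

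**Figure D4:**
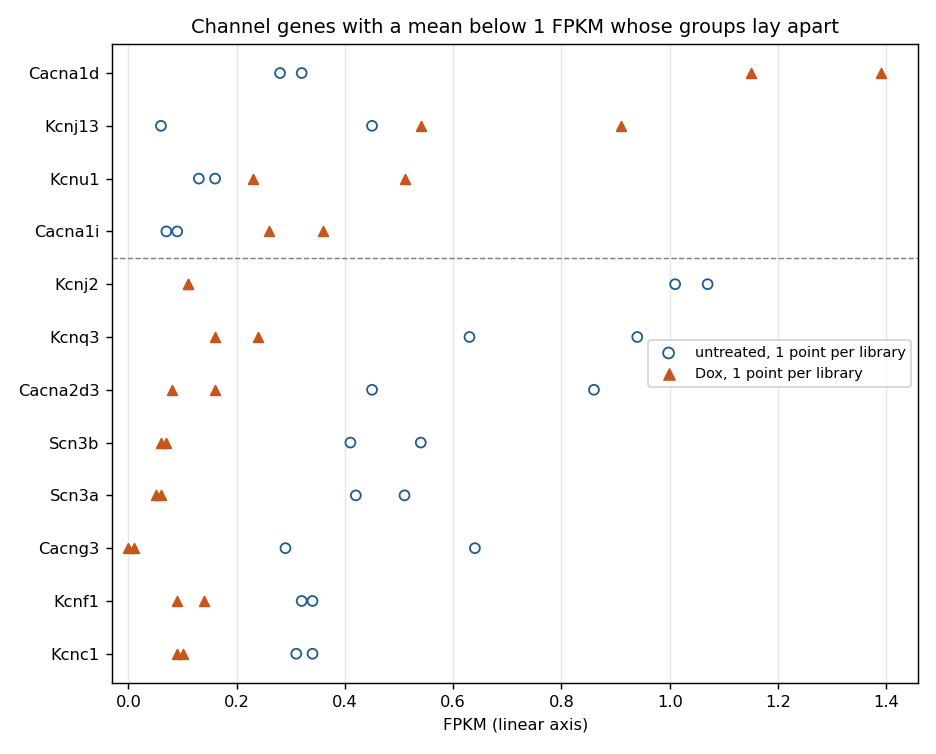
FPKM (linear axis) of the 12 channel genes with a mean below 1 FPKM picked for groups that lay apart, 1 point per library (circles untreated, triangles Dox, and the Dox points of Kcnj2 coincide). The 4 genes above the dashed line were higher and the 8 below it lower with Dox.

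When every gene with a value above 0 was tested, 131 of the 137 channel genes entered, and 2 were called higher (Kcnj12 and Kcnip1) and 3 lower (Kcnh2, Kcnj2 and Scn3a). Among all genes of that fit 2.71% were called, 1.22% higher and 1.49% lower. The median log2 fold change over the 131 was -0.014, and -0.0045 over all genes of the fit.

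The markers of other cell states moved between the same libraries. Of all tested genes 4.44% were called higher and 4.87% lower. Of the 9 tested neuron markers 8 were lower and 1 (Syt1) higher with Dox. The summed FPKM of all 12 neuron markers ran from 168.03 to 172.77 without Dox and from 91.97 to 95.98 with it. Tubb3 was the largest part, at 118.53 and 116.78 against 75.76 and 79.83 FPKM. Of the 3 tested neural crest and glia markers 3 were lower (list sums 25.21 to 25.93 against 5.18 to 5.49 FPKM). Of the 7 tested markers of other neural tube regions 6 were lower and 1 higher (list sums 243.89 to 254.57 against 29.9 to 34.17 FPKM). The 3 tested pigment epithelium markers, Mitf, Dct and Pmel, were higher (list sums 2.43 to 2.73 against 61.95 to 62.23 FPKM). Pmel alone was at 1.20 FPKM in both untreated libraries and at 39.27 and 39.93 FPKM with Dox. The untested markers Tyr, Tyrp1, Best1 and Rpe65 were below 1 FPKM in every library. Tyrp1 was at 0.09 FPKM in both untreated libraries against 0.62 and 0.64 FPKM, and Rpe65 at 0.02 and 0.08 against 0.02 and 0 FPKM. Of the 3 tested retinal neuron and photoreceptor markers 2 were higher (Crx and Prox1) and 1 lower (Pou4f1), with Rcvrn at 0 in every library. Crx was at 0.57 and 0.50 against 5.22 and 6.09 FPKM, and Pou4f1 at 9.64 and 9.27 against 1.30 and 1.06 FPKM, while the list summed to 12.54 to 13.13 against 11.82 to 13.01 FPKM. Of the 2 tested muscle and heart markers and the 4 of surface epithelium 0 passed in limma (1 and 0 at an unadjusted p under 0.05). The list sums were 3.08 to 3.73 against 4.22 to 8.25 FPKM and 47.65 to 52.60 against 51.22 to 57.68 FPKM, with Krt14 at 0. The 1 tested marker of endothelium and blood, Kdr, was higher (list sums 0.89 to 0.94 against 15.16 to 19.51 FPKM), with Hbb-bs at 0. The part of these markers in the channel results was not tested. In bulk libraries fewer cells of a type and less RNA per cell cannot be told apart.

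The proteins that anchor, modulate or accompany channels were read from a list of 31 genes, of which 11 were tested. With Dox 3 rose and 6 fell, against 9.31% of all tested genes called in either direction. Ank2, an ankyrin that anchors membrane proteins to the cytoskeleton, rose from 12.28 and 11.28 to 36.69 and 47.01 FPKM (log2 fold change 1.74, SE 0.130, adjusted p = 0.00116 in limma). Fgf13, an intracellular factor that binds sodium channels, was at 7.47 and 7.24 FPKM without and at 23.97 and 28.96 FPKM with Dox (log2 fold change 1.71, adjusted p = 7.27e-04). In both genes each Dox library lay far above each untreated one.

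The partners that fell included Cntnap2, which clusters potassium channels along axons, at 55.27 and 53.43 FPKM without and 24.85 and 23.29 FPKM with Dox (log2 fold change -1.14, SE 0.0703, adjusted p = 6.43e-04 in limma). Ank3, the ankyrin of the axon initial segment, was at 10.75 and 9.38 against 6.57 and 5.44 FPKM (log2 fold change -0.66, adjusted p = 0.0314). Gem and Rem2, small G proteins that inhibit calcium channels, had log2 fold changes of -0.85 and -0.71. Dpp6, a Kv4 partner, had -0.69 and Cachd1, an alpha2delta-like protein, -0.67. The third gene that rose was Fgf11, with 0.68. Amigo1 and Rrad were tested and did not pass. The median over the 11 genes was -0.66.

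**Figure D5:**
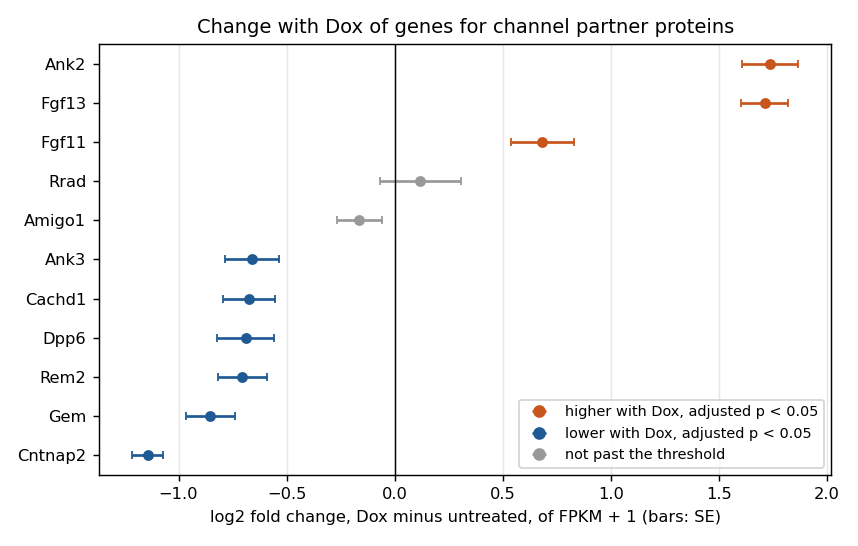
Log2 fold change (Dox minus untreated, of FPKM + 1, bars SE) of the 11 tested channel partner genes, coloured by call. Ank2 and Fgf13 lie near 1.7, and the 6 lower genes lie between -1.14 and -0.66.

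The m6A core motif GGACT was counted in the channel transcripts. Its median density in the longest annotated transcript was 1.13 per kilobase over the 30 tested channel genes and 0.998 over all tested genes. Among the called genes it was 0.406 in Kcnj12, 0.538 in Cacna2d1, 0.948 in Kcnh2, 1.22 in Kcnip1, 1.31 in Cacna1g and 1.48 in Kcnn1. A relation of this density to the change was not tested. Longest transcripts had a median of 3801 nt for the 30 genes and 3010 nt for all tested genes. The exons of 14 of the 30 tested genes overlap another gene, by at most 31.53% of bases, and among the called genes only those of Kcnn1 do (2.88%). Whether counting used strand is not given in the sources used here.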

How the data were processed

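Gene expression was measured by paired-end, poly(A)-selected RNA sequencing in 4 libraries, 2 untreated and 2 Dox-treated by their treatment label. The authors deposited FPKM values, 1 column per library, rounded to 2 decimals. STAR, Cuffdiff and the build mm10 are named in the submitters' processing notes, without versions or roles. The annotation release and strand setting are not given in the sources used here.

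Values were transformed to log2(FPKM + 1), and genes averaging 1 FPKM or more were tested with limma 3.58.1 (R 4.3.3; lmFit, then eBayes with intensity trend, prior 3.50 degrees of freedom). P-values are two-sided, adjusted by Benjamini-Hochberg across every gene that passed the filter, and called below 0.05. Counts at an unadjusted p under 0.05 are given without the share of all tested genes under it. Fold changes on this scale understate the change of low genes. The code was tested on simulated data.

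Depth was recovered in Python 3.11.15 from single-transcript genes of 450 to 1200 nt below 0.5 FPKM: 89.3% to 90.5% of values came out within 0.2 of a whole fragment, where evenly spread values would give 40.0%. Fragment numbers of single genes assume the longest transcript of GENCODE M21 (GRCm38), which also gave coordinates and exon overlaps by gene identifier. They are approximate.

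The members and lists were chosen with earlier results of these data known. Named genes are all called members, the member with the highest mean of each family and up to 3 called genes of each list. Further members and list genes, among them the other tested channel partners, are named after their values were seen. Some genes are not reported here. The same-numbered libraries' deviations correlated at -0.043, so the numbers are not shown to pair them.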

Additional observations from a re-analysis of the deposited data

How the results depend on the processing

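Kcnj12 and Kcnh2 were called in each of the 13 alternatives, Kcnip1 in each that tested it, and Cacna1g in each except the fit without the filter (adjusted p = 0.0687 in limma). With a minimum mean of 5 FPKM, which left 10 channel genes, 1 was higher (Kcnj12), 2 were lower, the channel median was 0.011 and 821 genes were called in all. Without the filter the median was -0.014 and 745 genes were called. Both settings test a different set of genes. Without the trend 6 channel genes were lower, Kcna5, Kcnab2 and Kcnn2 being added (the cause was not tested). In the 4 fits that each left out a library, which assume that the lone library varies like the others, 2 channel genes were higher (Kcnj12, Kcnip1) and 2 lower (Kcnh2, Cacna1g). All calls then numbered 593 to 697, and the channel median ran from -0.26 to -0.077. Scn8a, not called, ran from -0.33 to 0.050, the latter without untreated replicate 2. With a replicate block, 3 channel genes were higher and 3 lower, the same genes, and 532 and 602 of all genes were called. Over all genes the median log2 fold change was 0.0165 after rescaling to a common sum and -0.0065 after median centring. At this depth, genes at 0.1 FPKM rest on few fragments (18 and 19 for Kcnj2 with Dox).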

Other observations

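Receptor channels opened by transmitters were described from a list of 39 genes, of which 11 were tested, with 2 higher and 1 lower with Dox, against 9.31% of all tested genes called in either direction. The nicotinic receptor genes Chrnb4 and Chrna3 were the higher ones. Chrnb4 was at 0.53 and 0.60 FPKM without Dox and at 3.17 and 4.03 FPKM with it (log2 fold change 1.55, SE 0.147, adjusted p = 0.00277 in limma). Chrna3 was at 0.45 and 0.61 against 1.39 and 1.60 FPKM (log2 fold change 0.71, adjusted p = 0.0407), and both passed the filter only through the Dox libraries. The call of Chrna3 was lost without any 1 library (adjusted p 0.0854 to 0.159 in limma), without the filter (0.0858) and with a pseudocount of 0.1 (0.0541). The AMPA receptor gene Gria3 fell from 5.90 and 5.85 to 2.28 and 2.35 FPKM (log2 fold change -1.05, adjusted p = 0.00319).

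Of 20 genes for ion pumps, exchangers and chloride transporters 13 were tested and 1 was called, a share near that of all tested genes (9.31%). Slc8a1, the sodium-calcium exchanger, was at 4.28 FPKM in both untreated libraries and at 10.03 and 11.74 FPKM with Dox (log2 fold change 1.17, adjusted p = 0.00269 in limma). Of the 10 genes of the REST complex, a repressor of neuronal channel genes, 10 were tested and 0 passed in limma. At an unadjusted p under 0.05 in limma 3 were higher and 0 lower, without the share of all tested genes to set beside them. Rest itself was at 8.40 and 8.05 against 9.61 and 11.94 FPKM (adjusted p = 0.163).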
